A study of Mus musculus with 4 samples.

Results

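Naive colon of mice lacking Pla2g10 (KO) was set against naive wildtype (WT) colon on 2 single-colour Agilent arrays, 1 array per genotype, out of 4 arrays in the series. Both arrays were chosen by their labels. The labels give the mice as C57BL/6, wildtype or Pla2g10 knockout (–/–), and untreated. The age tag holds a sex and the sex tag an age, and together they read as 9 weeks and male, while the housing text speaks of mice 8 weeks old. Colon RNA of 3 mice was pooled for each array, and neither genotype has a second array. All values below are therefore ratios of 2 pools with no test and no error between mice. The other 2 arrays, WT and KO mice of the same strain after 1% (w/v) dextran sulfate sodium (DSS) in the drinking water to day 7, served as a second pair of pools of the same genotypes, under injury. No array is shared between the naive pair and the DSS pair. No label or file used here states which part of the gene was deleted.

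Pla2g10 encodes group X secreted phospholipase A2, which cuts fatty acids from the sn-2 position of membrane and lipoprotein phospholipids. The enzyme is made by the epithelium of the gut and releases polyunsaturated fatty acids and lysophospholipids into the lumen and the mucosa. These products feed prostaglandin and leukotriene synthesis and act on fatty acid receptors and nuclear receptors. The undisturbed colon itself is a mixture of absorptive colonocytes, mucus-making goblet cells, lymphoid follicles, lamina propria leukocytes, vessels, nerves and muscle, and all of them contributed RNA to each pool.

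The targeted gene was read by 1 probe, on the minus strand at chr16:13715169-13715228 (mm9). Clec16a and Pla2g4c, which stood out in the comparison as described below, were each measured by 1 probe as well. The Clec16a probe lies at chr16:10744705-10744764 on the plus strand, and the Pla2g4c probe at chr7:13941578-13941637 on the plus strand. The first 30 of the 60 bases of these 3 probes, as printed in the scanner files, identify what was hybridised and carry no capitals, since no base in them is singled out.
Pla2g10: ggcttggctgtggtaataacattgccacat
Clec16a: aaaccaagtctgatcttttgtagatgcaat
Pla2g4c: tacacaccagacctggtgagagatttgctg

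Signal is given relative to the 75th percentile of each array, so that 1 equals that percentile. Pla2g10 had a signal of 15.9 in WT naive and 1.70 in KO naive, 9.37-fold lower in KO. With DSS it stood at 19.1 in WT and 0.997 in KO. Both KO arrays were thus lower than both WT arrays, as the labels give them. The KO signal was still well above background, and no label or file used here places the probe inside or outside the deleted part. The colon label was checked with its marker genes. Hoxb13, a position gene of the hindgut, had a relative signal of 33.8 in WT and 33.4 in KO. Car1, the carbonic anhydrase of colonocytes, stood at 95.5 and 113, and Cdx2, Krt20, Muc2 and Slc26a3 were between 6.91 and 84.3 on both arrays.

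**Figure D1:**
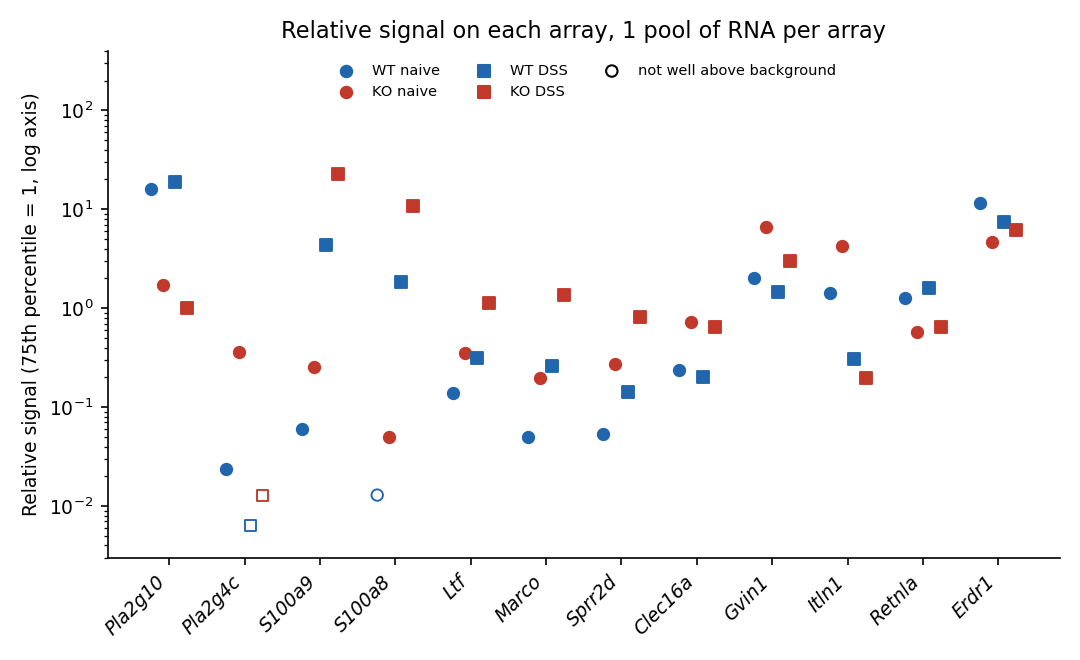
Relative signal (log axis, 75th percentile of the array = 1) of 12 genes on each of the 4 arrays, circles for naive and squares for DSS, blue for WT and red for KO. Each point is 1 pool, so there are no error bars, and open points were not well above background. Pla2g10 is lower on both KO arrays, S100a9, Marco, Sprr2d, Clec16a and Gvin1 are higher on both, and Itln1 is higher in KO in the naive pair alone.

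Naive KO and WT colon were close to each other at most genes. A gene was kept when at least 1 of its probes was well above background on at least 1 naive array, and its brightest kept probe stood for it, which gave 20971 genes of 30199 names in the files. Of these, 19870 were well above background on both naive arrays, and 98.98% of the latter lay within 2-fold of each other and 96.2% within 1.5-fold. The median log2 ratio of KO over WT was 0.02. At a 2-fold threshold, 258 genes were higher in KO (1.23% of the genes) and 237 were lower (1.13%). Where the dimmer array did not measure the gene, that array's lowest well-measured signal was used, or the gene's own signal if higher. The ratio is then called a bound and worded as an at least fold. Such a bound is nominal, since some signals above that level were not well above background. Bounds were used for 132 of the genes that were higher and for 160 of those that were lower.

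Most of these genes were dim. In the dimmest of 4 equal groups by signal, 210 genes were higher and 218 lower, against 39 and 15 in the next group, 6 and 1 in the group above that, and 3 and 3 in the brightest. Only 10 of the higher and 4 of the lower genes reached a relative signal of 1 on the higher array. Olfactory and vomeronasal receptor genes supplied 15 of the 258 higher and 23 of the 237 lower genes, and 260 of all 20971 genes. Repeat spots of 1 probe on 1 array measure the noise of the spots. Their log2 ratio between the arrays had a median SD of 0.158 among the dimmest of 3 equal groups of 314 repeated probes, 0.0866 in the middle group and 0.0710 in the bright group. Within an array, 0.767% of pairs of repeat spots in the dim group differed by 2-fold or more on the WT array and 0.493% on the KO array, and none did in the other groups. The dim group of repeated probes had a median relative signal of 0.0806, and its highest SD of the log2 ratio was 0.781. The dimmest of the 4 groups of genes was dimmer, at a median of 0.0372. The noise of repeat spots leaves out the spread between mice and between labelling reactions.

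**Figure D2:**
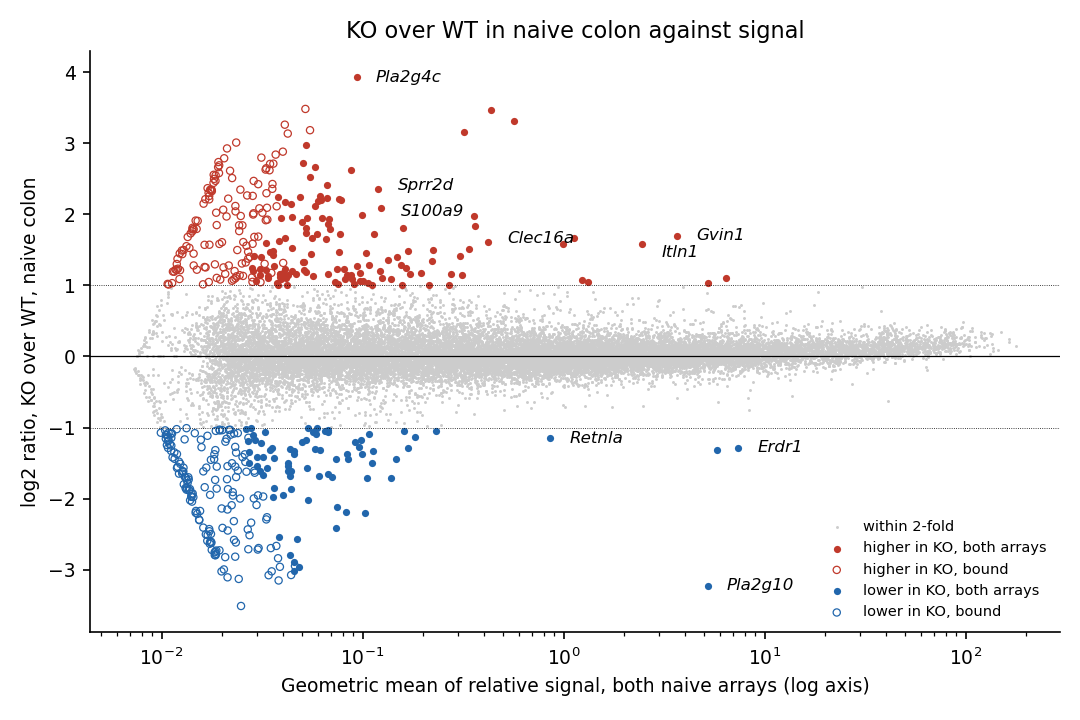
log2 ratio of KO over WT in naive colon against the geometric mean of the relative signals (log axis) for 20971 genes. Filled points are past 2-fold (dotted lines) on both arrays and open points are bounds, red for higher and blue for lower in KO. The spread narrows with signal, and Pla2g10, Erdr1, Gvin1 and Itln1 stand away from genes of like brightness.

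Different probes of a gene bear on whether a ratio belongs to the gene or to a probe. Only 13 of the higher genes had a second kept probe. In 11 of them every probe was on the same side, and in 3 a second probe was past 2-fold too. Of the lower genes 8 had a second probe, with 4 of 8 on the same side throughout and 2 of 8 with a second probe past 2-fold. Cacnb2 (a calcium channel subunit) was at least 9.58-fold higher by 1 probe, while another stood at a log2 ratio of -0.22, so its ratio is not that of the gene as a whole. D030028A08Rik was 3.28-fold lower by its brightest probe and had a second probe of opposite sign.

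Among the phospholipases A2, 27 of 28 listed genes were measured, 14 of them above 0, with a median log2 ratio of 0.01. Pla2g10 itself was the only member past 2-fold downward, and Pla2g4c, a cytosolic member, the only one upward. Pla2g4c had a signal of 0.0239 in WT naive and 0.364 in KO naive, 15.2-fold higher, which was the highest ratio among named genes measured on both arrays. Neither DSS array measured it above background, so the second pair gives no ratio. Of the other secreted enzymes, Pla2g5 stood at 2.34 in WT and 2.29 in KO, Pla2g2a at 0.136 and 0.170, Pla2g2c at 0.672 and 0.802, and Pla2g12a at 0.505 and 0.580. Pla2g3, the group III secreted enzyme, differed more and was 0.668 in WT and 1.07 in KO (log2 ratio 0.68), and with DSS its ratio was -1.26. The cytosolic Pla2g4a, the main source of arachidonic acid in many cells, had 2.87 and 2.93.

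Genes downstream of the released fatty acids differed little. Of 28 measured genes of eicosanoid synthesis and receptors, 10 were above 0 and 0 passed 2-fold, with a median of -0.05. Ptgs1 (cyclooxygenase 1) had a relative signal of 3.18 in WT and 2.89 in KO, Ptges (prostaglandin E synthase) 13.9 and 15.5, and Hpgd, which breaks prostaglandins down, 9.24 and 8.68. Of those measured on both arrays the extremes were Ptgs2 (cyclooxygenase 2), 0.116 and 0.157, and the prostaglandin receptor Ptger1, 0.178 and 0.121. Ptgfr, the prostaglandin F receptor, was not well above background in KO and was at least 1.59-fold lower. PPAR targets and fatty acid sensors showed 12 of 26 above 0, 0 past 2-fold and a median of -0.01. Ffar4, a receptor for long-chain polyunsaturated fatty acids, was 1.28 in WT and 0.997 in KO, and the fatty acid transporter Cd36 was 0.154 and 0.111.

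Among genes of the epithelium, the antimicrobial list held some bright members with ratios well above 0. Of its 31 genes 30 were measured, 24 above 0, and 1 passed 2-fold upward, a share to be read beside the 1.23% of all genes. That gene was Itln1, an intelectin of goblet and Paneth cells that binds microbial sugars. Its signal was 1.42 in WT naive and 4.25 in KO naive, 3.00-fold higher. All 3 of its probes gave nearly the same ratio, with log2 values of 1.58, 1.52 and 1.59. With DSS the gene stood at 0.304 in WT and 0.196 in KO, so the DSS pair had the opposite order. Retnlb, the goblet cell resistin-like molecule, was 21.8 in WT and 43.0 in KO (log2 ratio 0.98), and 0.12 with DSS. Ang4, an antimicrobial ribonuclease, was 13.7 and 22.6 (0.73), and Slpi, a secreted protease inhibitor, 1.35 and 2.17 (0.69). Reg3a, a lectin that kills bacteria, had the lowest ratio of the list, at 0.222 and 0.116 (-0.94).

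The structural genes of the epithelium were close to equal. Goblet cell markers were above 0 in 16 of 23 cases with a median of 0.17, which came to 0.00 under normexp and quantile normalization. Muc2, the secreted mucin, was 68.2 in WT and 84.3 in KO, and Atoh1, the factor that sets the secretory fate, 7.90 and 6.51. Absorptive colonocyte markers were above 0 in 25 of 36 cases with a median of 0.13, which was -0.00 under the same alternative. Alpi, intestinal alkaline phosphatase, was highest at 0.391 and 0.640, and S100g, the calcium-binding protein of calcium uptake, lowest of those measured on both arrays at 10.9 and 6.46. Scnn1g, a sodium channel subunit, was not well above background in KO and was at least 2.60-fold lower, the 1 lower call among the 36. Crypt stem cell and Wnt target genes had a median of -0.06 with 0 past 2-fold, and Lgr5, the stem cell receptor, was 0.527 and 0.479.

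Genes of proliferation and of fatty acid and cholesterol synthesis lay on the KO side as lists, with no member past 2-fold. Of 29 measured cell cycle genes 23 were above 0, with a median of 0.28. The mitotic genes Mki67 (5.66 in WT, 8.17 in KO), Aurka and Plk1 (2.52 and 3.55) had log2 ratios of 0.53, 0.53 and 0.50. The replication genes Mcm5, Mcm4 and Pcna were at -0.00, -0.02 and -0.07. These 6 were picked after their values had been seen. Aurkb, a mitotic kinase, was measured in KO alone and was at least 1.39-fold higher. Of 29 genes of fatty acid and cholesterol synthesis 25 were above 0, with a median of 0.37. Hmgcs1, which makes the precursor of the sterol pathway, was 13.5 in WT and 25.4 in KO (0.91). Insig1, a sensor of sterol level, was 0.256 and 0.443 (0.79), Sqle (squalene epoxidase) 5.91 and 9.79 (0.73), and Idi1 5.84 and 9.50 (0.70). The members that made fatty acids were nearer to 0 or below it, with Acly at 0.03, Scd1 at -0.25 and Fads1 at -0.30, while Fasn stood at 0.51. With DSS 2 of the 29 were above 0 and the median was -0.36.

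These medians stand beside a small offset of the brightest genes. The brightest of the 4 equal groups of genes had a median log2 ratio of 0.06, and 25 reference genes had a median of 0.10, with 20 of 25 above 0 and a range of -0.13 to 0.37. The reference median went to -0.02 under normexp and quantile normalization. Oxidative phosphorylation genes, which are bright, were above 0 in 31 of 32 cases with a median of 0.16, and that median was 0.04 under that alternative. With DSS 0 of these 32 were above 0, and their median was -0.32. The reference genes had a median of -0.18 with DSS, with 4 of 25 above 0. The part of this offset in the list medians was not tested. The medians of fatty acid and cholesterol synthesis and of cell cycle genes ranged from 0.34 to 0.37 and from 0.26 to 0.28 over all alternatives that were run.

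**Figure D3:**
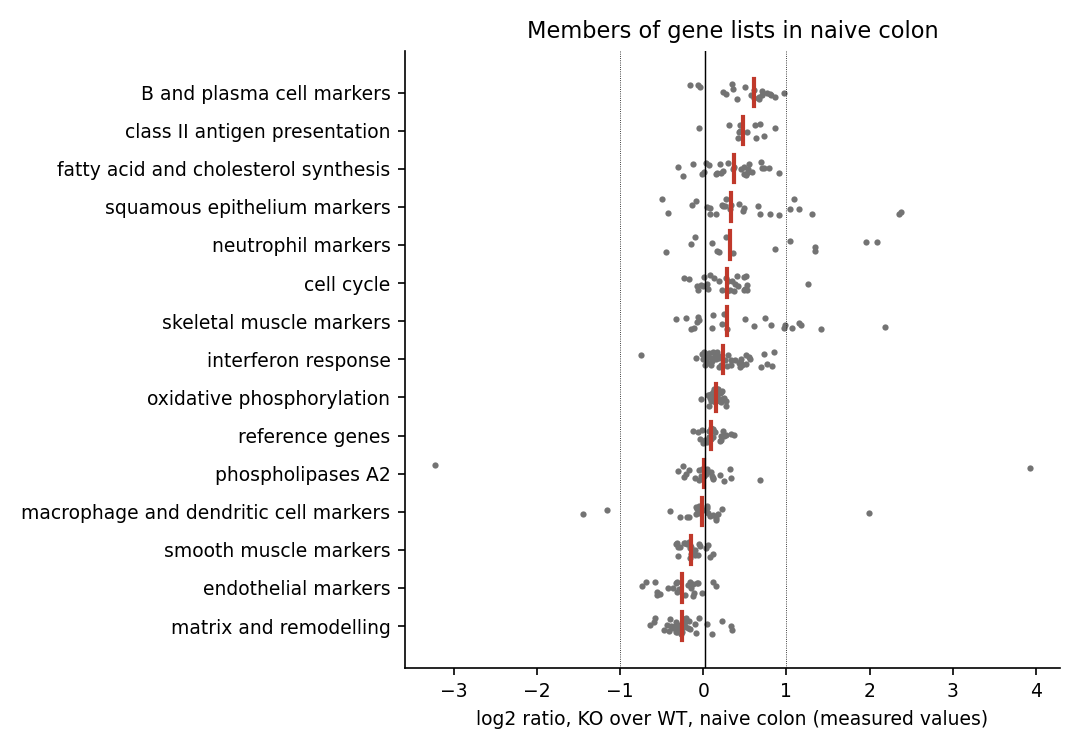
log2 ratio of KO over WT in naive colon for each measured member (grey points, spread at random in height) of 15 gene lists, with the list median in red and the median of all genes as a solid line. B and plasma cell, class II, and fatty acid and cholesterol synthesis genes lie to the right with no member past 2-fold (dotted lines). Endothelial and matrix genes lie to the left, and single members of the squamous, neutrophil and skeletal muscle lists are far to the right.

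B lymphocyte genes were higher in the KO pool as a group. Of 21 measured B and plasma cell markers 18 were above 0, against 11471 of all 20971 genes, with a median of 0.61 and 0 past 2-fold. Cd79b, the signalling chain of the B cell receptor, had a signal of 0.551 in WT naive and 0.999 in KO naive (1.81-fold). Cd72 was 0.202 and 0.395 (1.96-fold), and Cr2, the complement receptor of follicular B cells, 0.240 and 0.383. Plasma cell genes were nearer to equal. Igj, the joining chain of secreted IgA and IgM, was 20.0 in WT and 28.2 in KO (0.50), Sdc1 (syndecan 1) 3.32 and 3.24, and Xbp1, which drives secretion, 30.2 and 29.0. In the DSS pair 19 of 21 were above 0 with a median of 1.03, and 13 passed 2-fold upward, where 4.1% of all genes did and 1.64% passed downward. In tissue pools, more cells of a type and more RNA per cell cannot be told apart.

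Class II antigen presentation genes, which B cells, dendritic cells and macrophages share, were above 0 in 11 of 12 cases with a median of 0.48 and 0 past 2-fold. H2-Oa and H2-Ob, which form the modulator of peptide loading found in B cells, were highest on both arrays measured, at log2 ratios of 0.86 and 0.74. The presenting chains H2-Aa, H2-Ab1 and H2-Eb1 and the invariant chain Cd74 were between 0.41 and 0.44. Lymphoid follicle and stroma markers had a median of 0.28, with Ltb (lymphotoxin beta) at 0.392 and 0.649 and Ccr6 at 0.227 and 0.362. Of 26 T and NK cell markers 19 were above 0, and their median was 0.10. Cd3d and Cd3g were at 0.44 and 0.45 and Cd3e at 0.04. Markers of macrophages and dendritic cells were at -0.01 with 11 of 22 above 0, and Csf1r, Emr1 and C1qa were at -0.08, -0.05 and -0.07. The labels do not state how many follicles each pool held, and their part in the B cell values was not tested.

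Probes in the 3 immunoglobulin loci, a group put together after values had been seen, gave a more uneven picture. Of 200 probes 138 were above 0, 31 were at least 2-fold higher in KO and 8 at least 2-fold lower, where 1.23% and 1.13% of all genes were. Their median was 0.22. The 6 probes of the lambda light chain locus on chromosome 16 were all above 0, with a median of 1.01, and 3 passed 2-fold. AF138742, the brightest of those 3, had a signal of 4.38 in WT naive and 9.42 in KO naive. With DSS all 6 passed 2-fold, with a median of 1.55. Kappa chain probes had a median of 0.22 and heavy chain probes 0.20. The brightest probe of the heavy chain locus was 134 in WT and 169 in KO. Single probes of variable segments differed more. AF468836 was 0.180 in WT and 1.80 in KO, L09033 was 0.131 and 1.44, and X87746 was 0.107 and 0.955. The AF468836 and L09033 probes lie side by side, at chr6:68387858-68387917 and chr6:68387766-68387825 (mm9), and may read 1 segment. On the lower side, X59193 was 0.139 in WT and 0.0513 in KO, and JX120184 0.156 and 0.0733. AF468836, L09033 and X87746 had log2 ratios of 0.50, 0.36 and 0.11 with DSS, while AF144972, 0.181 and 0.714 in naive, had 1.90 with DSS.

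Interferon response genes were slightly higher in the KO pool with few exceptions. Of 45 listed genes 44 were measured, 41 were above 0, and 0 passed 2-fold, with a median of 0.24. Oas2, a sensor of double-stranded RNA, had a relative signal of 0.280 in WT and 0.504 in KO (1.80-fold). Isg15, a ubiquitin-like modifier, was 1.65 and 2.92 (1.78-fold), and Ifit1, which blocks foreign RNA, was 0.266 and 0.451 (1.70-fold). The guanylate-binding and immunity-related GTPases were closer to equal, with Gbp2 at 0.05, Gbp3 at 0.09, Igtp at 0.16 and Irgm1 at 0.02. Mx2 was the lowest member, at 0.147 and 0.0878. Under DSS 29 of 44 were above 0, and the median was 0.12. Class I antigen presentation had a median of 0.13, with 16 of 18 above 0, Nlrc5, its transactivator, highest at 0.48, and B2m at -0.01.

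Promoters are printed below for the 4 measured members with the highest ratios among those that carried a response element. That they share the element was fixed by this choice. The interferon-stimulated response element was searched as GAAANNGAAA on both strands of RefSeq promoters (GRCm38.p6, 250 bases before to 50 after the start). It occurred in 19 of the 30 promoters found for the 44 measured members (63.3%) and in 1079 of 27025 promoters in all (3.99%). The gamma-activated site was searched as TTCNNNGAA. It was found in 9 of 30 (30%) and in 9.55% of all, and 5 of the 30 promoters held both motifs. Class II genes had the response element in 1 of 9 promoters and B cell genes in 2 of 16. These shares describe the lists and do not compare KO with WT. Capitals below mark the matches, which overlap in Isg15. The stretches are chr4:156200845-156200926 (minus strand) for Isg15, chr19:34640755-34640843 (plus) for Ifit1, chr5:120777695-120777764 (minus) for Oas3 and chr12:26456533-26456602 (minus) for Rsad2. A match describes the letters and is not a measured binding site.
Isg15: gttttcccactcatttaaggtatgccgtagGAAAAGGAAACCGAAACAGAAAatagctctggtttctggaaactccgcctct
Ifit1: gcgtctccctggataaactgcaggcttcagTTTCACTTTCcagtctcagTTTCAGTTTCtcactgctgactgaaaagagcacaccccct
Oas3: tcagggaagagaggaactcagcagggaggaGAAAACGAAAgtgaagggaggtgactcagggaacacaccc
Rsad2: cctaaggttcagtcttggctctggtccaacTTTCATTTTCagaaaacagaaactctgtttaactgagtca

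Gvin1, a very large interferon-inducible GTPase that was not in that list, was the brightest gene past 2-fold upward with a symbol. Its signal was 2.04 in WT naive and 6.62 in KO naive, and 1.47 and 2.97 with DSS. A second probe gave a log2 ratio of 1.47 in naive and 1.83 with DSS, beside 1.70 and 1.02 for the first. Other genes of the same family stand next to it on chromosome 7, and the following were picked after their values had been seen. Gm4759, at 265 kb from the Gvin1 probe, was at least 3.77-fold higher in naive by 1 of its 2 probes (log2 ratio 1.92). ENSMUST00000098144, which the files describe as Gm1966, at 444 kb, was 0.636 and 2.01 in naive and at a log2 ratio of 1.20 with DSS. The probe named Gm1966 itself gave 0.63 in naive and 0.44 with DSS, and Gm8995 between them gave 0.44 and 1.06. On the other side of Gvin1, Mrpl17, Ilk and Taf10 were between -0.20 and 0.06 in naive, and Rrp8, the lowest of those measured there in the window searched, was at -0.32. Transcripts of near-identical copies cannot be told apart by single probes.

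Of 14 measured neutrophil markers, out of 24 on the array, 4 were past 2-fold upward and 0 downward, where 1.23% of all genes passed upward. S100a9, a calcium-binding alarmin, had a signal of 0.0600 in WT naive and 0.254 in KO naive, and its partner S100a8, which the WT array did not measure above background, was at least 3.05-fold higher in KO. Ltf (lactoferrin) was 0.139 and 0.354, and Il1b, the inflammatory cytokine, 0.0261 and 0.0536. In all, 11 of the 14 were above 0. Lcn2, the siderophore-binding lipocalin, was 0.262 in WT and 0.191 in KO, the lowest ratio of the list, and Elane 0.869 and 0.813. Ly6g, the surface marker of mouse neutrophils, was nearly equal at 2.60 and 2.79. S100a9 stood at 4.35 in WT and 22.5 in KO with DSS, so both naive values of S100a9 were far below those of injured colon. The median of the 14 was 0.32 in naive and 1.57 with DSS. The members that were not measured on either naive array give no ratio.

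Macrophage and dendritic cell markers split in both directions. Marco, a scavenger receptor, was 0.0498 in WT naive and 0.198 in KO naive. Retnla, a resistin-like protein of type 2 immunity, was 1.27 and 0.572 in naive and 1.58 and 0.643 with DSS, which made it the brightest gene besides Pla2g10 to pass 2-fold downward in both pairs. Ccl24, an eosinophil attractant, was 0.121 and 0.0445, 2.72-fold lower. It is a chemokine ligand but was counted in the macrophage list only. In the list of chemokine ligands, which leaves out Ccl24, 25 genes were measured and 16 were above 0. None of that list passed 2-fold, and its median was 0.09. The lowest 3 of that list were Ccl11 at 0.381 and 0.222, Ccl12 at 0.211 and 0.132, and Ccl7 at 0.138 and 0.0988. Ccl8 was 0.583 and 1.08, Ccl4 0.0312 and 0.0455, and Ccl3, not well above background in WT, at least 1.74-fold higher. In the DSS pair Ccl11, Ccl12 and Ccl7 had ratios of the opposite sign, at 1.29, 0.70 and 1.17. Mast cell and eosinophil markers were above 0 in 6 of 11 cases with a median of 0.05, and the lowest were the eosinophil ribonucleases Ear1 and Ear2, at -0.53 and -0.57. Among 17 measured cytokines 2 passed upward and 1 downward, where 1.23% and 1.13% of all genes did. Il17f, of the Th17 family, was at least 3.22-fold higher, and Csf3, the neutrophil growth factor, at least 2.12-fold lower, each well above background on 1 naive array.

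The stromal compartments lay on the WT side. Of 38 measured matrix and remodelling genes 33 were below 0, with a median of -0.26 and 0 past 2-fold. Col14a1, a collagen that binds fibrils, was 0.821 in WT and 0.527 in KO (-0.64), Fbn1 (fibrillin) 0.416 and 0.277, Lum (lumican) 4.51 and 3.01, and Col1a1 6.26 and 4.95. Of 24 endothelial markers 22 were below 0, with a median of -0.25. Tek, the angiopoietin receptor, was 0.0556 and 0.0334, Lyve1, of lymphatic vessels, 0.691 and 0.468, and Pecam1 0.177 and 0.145, whereas Kdr was 3.06 and 3.39. Smooth muscle markers were below 0 in 20 of 24 cases with a median of -0.15, and enteric neuron, glia and Cajal cell markers in 20 of 26 with a median of -0.11. Vip, the vasoactive peptide of enteric neurons, was lowest of these at 1.31 and 0.801. In the DSS pair the matrix list was above 0 in 38 of 38 cases and the endothelial list in 23 of 24, with medians of 0.83 and 0.77. The labels do not state how much muscle, mucosa and mesentery each pool held, and their part in these values was not tested.

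Genes listed as markers of squamous epithelium and skeletal muscle, tissues outside the colon wall, were higher in the KO pool as lists. Some were past 2-fold as single genes. Whether their RNA came from such tissue or from the colon wall itself was not tested. Of 27 measured squamous epithelium markers 23 were above 0, with a median of 0.33. Of these, 6 passed 2-fold upward and 0 downward, where 1.23% and 1.13% of all genes did, and 4.01% and 4.16% in the dimmest group. Sprr2d, a cornified envelope protein, was 0.0532 in WT and 0.271 in KO, Sprr1a 0.926 and 1.91, Lce3c 0.0453 and 0.101, and Lce3a 0.0608 and 0.129. Sprr2h and Dsg3 were at least 4.24-fold and at least 2.47-fold higher. The keratins that define the stratified layer were near to equal, with Krt14 at 0.265 and 0.294, Krt10 at 1.24 and 1.31, and Krt13 at a log2 ratio of -0.09. Summed over the list, the relative signal was 9.80 in WT and 12.2 in KO.

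Of 23 measured skeletal muscle markers 16 were above 0, with a median of 0.28. Upward 5 passed 2-fold and downward 0, where 1.23% and 1.13% of all genes did. Ttn (titin) was 0.0281 and 0.128, Myh1, a fast myosin, 0.187 and 0.500, Mb (myoglobin) 0.130 and 0.293, and Tnnc2, fast troponin C, 0.855 and 1.80. Neb (nebulin) was at least 2.21-fold higher by 1 of its 3 probes. Acta1 and Ckm were 2.52 and 2.18, and 0.327 and 0.317, so the summed signal of 31.8 and 32.5 was nearly equal in both pools. With DSS, Myh1, Mb and Tnnc2 were past 2-fold in the opposite direction. Pancreatic markers had a median of -0.12 in naive, with Ins1, an insulin gene, alone past 2-fold at 0.0289 and 0.155, and Ins2, the other insulin gene, at 0.238 and 0.202. Globin and other erythrocyte markers had a median of -0.21, with Hba-a1 at 3.14 and 2.43. The part of such tissue in other ratios was not tested.

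The remaining genes with the highest ratios on both arrays were dim. They were Depdc7 (0.0187 in WT and 0.147 in KO), Olfr279 (0.0231 and 0.146), Pyhin1, an interferon-inducible DNA-binding protein (0.0224 and 0.106), B130006D01Rik (0.0175 and 0.0826), Gm4035, Fbxw22, Ly6f, Pbp2 and Mst1, with folds from 3.85 to 7.86. Of these, Pyhin1 alone was past 2-fold upward in the DSS pair, at a log2 ratio of 1.55. Genes with the lowest ratios after Pla2g10 were St8sia3, a sialyltransferase (0.134 and 0.0172), Gm16442, Plekhg4 (0.115 and 0.0166), Gm7550, Sez6, Ikzf3, a lymphoid transcription factor (0.176 and 0.0386), and Lrrc73, from 7.82-fold to 4.04-fold lower. Gm7550 was lower in the DSS pair too, at least 6.27-fold, while Ikzf3 had a log2 ratio of -0.01 and St8sia3 of -0.02. Genes measured on the WT array only included Eomes, a T and NK cell transcription factor (at least 8.88-fold lower), whose second probe was lower too, and Prok1 (at least 8.75-fold lower).

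Erdr1, named in the files as erythroid differentiation regulator 1, was the brightest gene past 2-fold downward besides Pla2g10. It had a signal of 11.5 in WT naive and 4.70 in KO naive (2.44-fold lower). TC1700876, a transcript that the files describe as part of the same gene, was 9.13 and 3.66, with a log2 ratio of -1.32 beside -1.29. Neither probe has a position in the files. The DSS ratios were -0.27 and -0.29, so the WT naive array was the highest of the 4 for both probes. Erdr1 stood at 7.47 in WT and 6.19 in KO with DSS.

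Most genes beside Pla2g10 on chromosome 16 were close to equal. Of 23 genes within 1 Mb of its probe 0 passed 2-fold. Among the 12 nearest genes were Bfar, a regulator of cell death, at a log2 ratio of 0.22, Mkl2 at a log2 ratio of -0.04, Rrn3 with signals of 1.27 and 1.20, and Ntan1 at 3.76 and 3.51. LOC101055727 (2.80 and 2.87) and Pdxdc1 (3.25 and 3.04) were close to equal too. The lowest of the 12 was 2310015D24Rik, at 0.0280 in WT and not well above background in KO, at least 1.81-fold lower. Between 1 and 2.5 Mb, 1 of 16 genes was higher. Between 2.5 and 5 Mb, 2 of 83 were higher, and 1 of these, Clec16a at 2.97 Mb, was higher in the DSS pair too. Clec16a, a regulator of autophagy and mitophagy, had a signal of 0.240 in WT naive and 0.731 in KO naive, and 0.203 and 0.653 with DSS. Both KO pools were thus well above both WT pools, and within a genotype the naive and DSS values were close. Its other 2 probes were not well above background on any array, so the ratio rests on 1 probe. Between 5 and 10 Mb, 3 of 131 genes were higher and 2 lower in naive. The 3 higher genes were higher in both pairs, all named by transcript, and they lie in the lambda light chain locus described above. Retnla also lies on chromosome 16, at a distance of over 10 Mb, where 5 of 420 genes were higher and 5 lower.

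The DSS pair showed how many naive differences recurred in other mice of the same genotypes. With DSS, 859 genes were at least 2-fold higher in KO (4.1%) and 343 lower (1.64%). Of the 258 genes higher in naive, 45 were higher with DSS too (17.4% of the naive list and 5.24% of the DSS list), and 20 were past 2-fold downward. Of the 237 lower in naive, 16 were lower with DSS (6.75% and 4.66%), and 18 were past 2-fold upward. Signal separated the genes. Outside the dimmest group, 19 of 48 higher genes recurred (39.6%), where 2.95% of all genes there were higher with DSS, and 5 of 48 (10.4%) were past 2-fold downward, where 0.992% of all were. In the dimmest group it was 26 of 210 (12.4%), where 7.53% of all were. The 48 higher entries outside the dimmest group were not all separate genes, since many are immunoglobulin probes of the 3 loci. Among the 19 that recurred were the immunoglobulin entries AF138742, ENSMUST00000103749, ENSMUST00000103420 and AF144972. Gvin1 and its chromosome 7 neighbour ENSMUST00000098144 were among them too. Of the lower genes outside the dimmest group, Pla2g10 and Retnla recurred, 2 of 19, where 0.992% of all genes there were lower with DSS. Another 2 of 19 were past 2-fold upward with DSS, where 2.95% of all were.

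Genes that were higher in both pairs included Sprr2d (5.10-fold in naive and 5.81-fold with DSS), S100a9, Marco (3.98-fold and 5.14-fold), Clec16a, Ltf and Gvin1. Others were Fcgr1, the high-affinity IgG receptor (0.0641 and 0.129 in naive, 0.194 and 0.446 with DSS), Cd300lf, an inhibitory receptor of myeloid cells, and Klra1, a receptor of NK cells. Cd300lf rested on 1 of 3 probes in naive, the others being at 0.29 and 0.26. Tbx22, a T-box transcription factor, was 0.0856 and 0.184 in naive and 0.0463 and 0.103 with DSS. These additional genes were picked after their values had been seen.

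**Figure D4:**
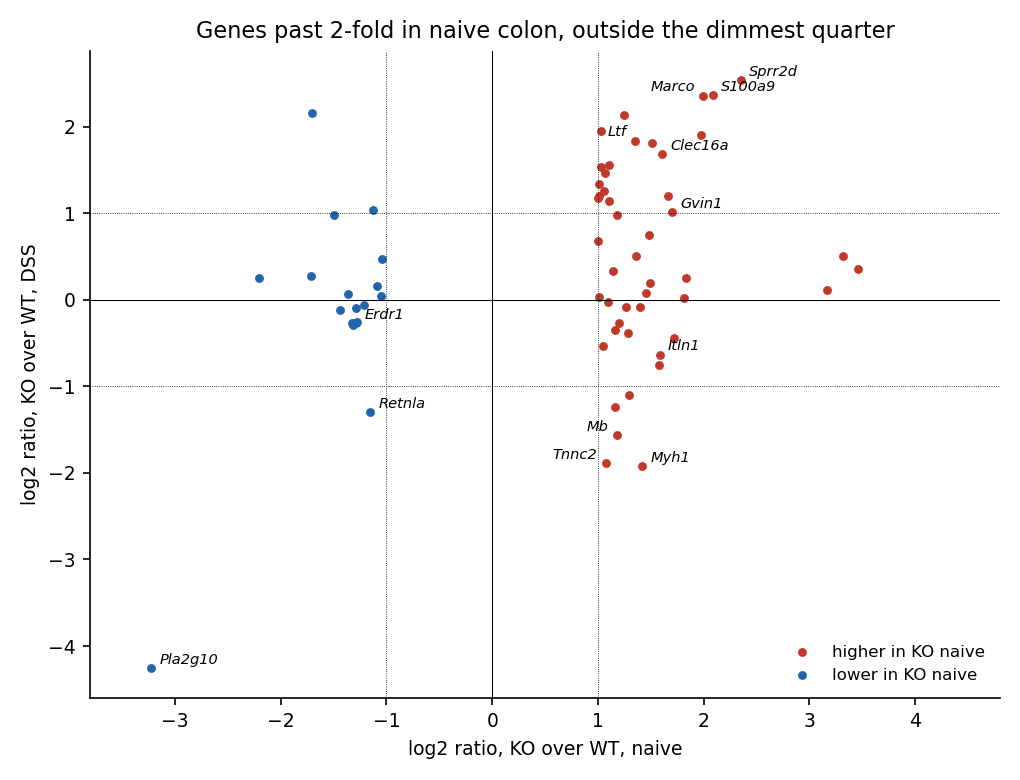
log2 ratio of KO over WT with DSS against that in naive colon for the 65 genes past 2-fold in naive, outside the dimmest group, that were measured on a DSS array (2 further genes were not). Red points were higher and blue points lower in KO naive, and dotted lines mark 2-fold. Sprr2d, S100a9, Marco and Clec16a lie past 2-fold in both pairs, Retnla and Pla2g10 are low in both, and Myh1, Mb and Tnnc2 have opposite signs.

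The lists as a whole kept or changed side between the pairs. B and plasma cell, class II, neutrophil and lymphoid follicle genes had positive medians in both. Fatty acid and cholesterol synthesis, cell cycle, squamous and skeletal muscle genes were positive in naive and negative with DSS. Reference genes did the same, with medians of 0.10 and -0.18, as did oxidative phosphorylation genes, with 0.16 and -0.32. The part of this offset in the side changes was not tested. Endothelial, matrix and erythrocyte genes were negative in naive and positive with DSS. None of these differences between pairs was tested, since each pair holds 1 array per genotype.

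**Figure D5:**
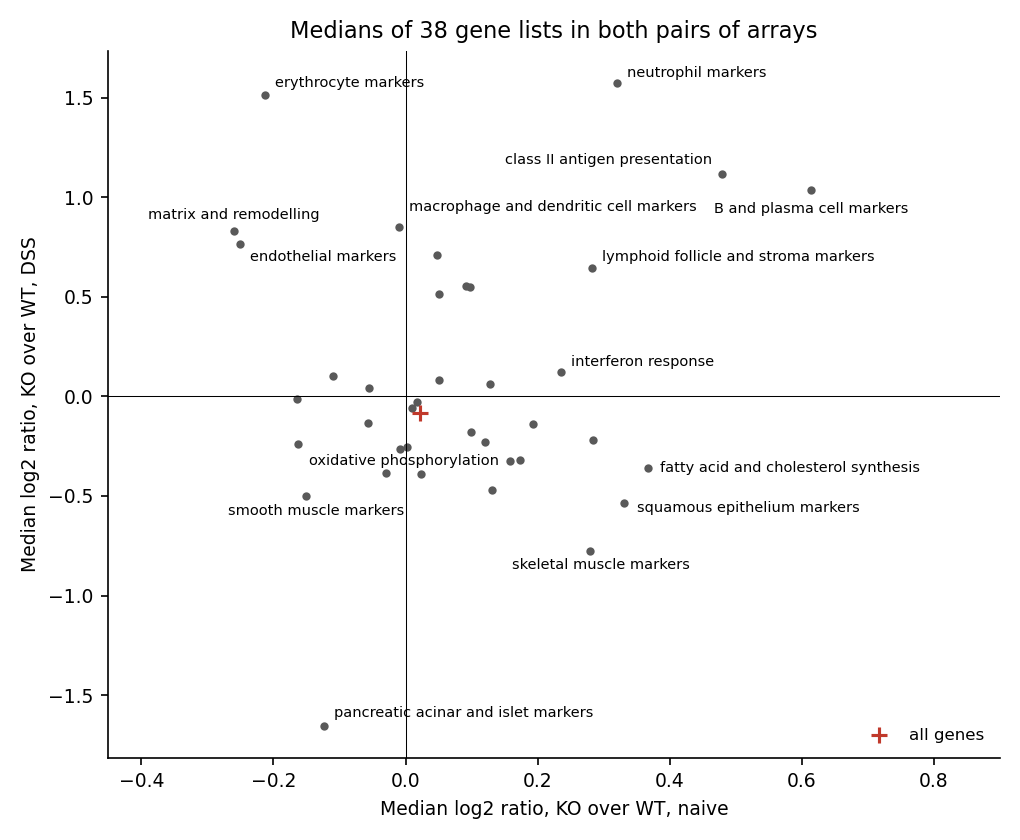
Median log2 ratio of KO over WT of 38 gene lists, naive on the horizontal axis and DSS on the vertical axis, with all genes as a red cross (0.02 and -0.08). B and plasma cell, class II and neutrophil lists lie in the upper right, and endothelial, matrix and erythrocyte lists in the upper left. The lists of fatty acid and cholesterol synthesis, squamous epithelium and skeletal muscle lie in the lower right.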

How the data were processed

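Colon RNA of 4 pools was hybridised to 1-colour arrays. The deposited scanner files hold a spot intensity after background subtraction and detrending, made with Agilent Feature Extraction 11.5.1.1 per the submitters' processing notes, with flags per the file headers. The deposited series table holds a signal that equals this intensity divided by each array's 75th percentile, and was used as an alternative. Coordinates are mm9 per the file headers. Labelling with Cy3 started from 200 ng of RNA, per the labels' protocols.

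Each array had 43020 spots and 1377 control spots. Controls and spots flagged as outliers (131 on WT naive and 136 on KO naive) were left out, 0 spots were saturated, and 67.7% and 68.6% were well above background. The number of arrays limits the precision. The log2 intensity was set relative to the 75th percentile (2696 in WT and 2282 in KO), spots of a probe were averaged, and a gene was its brightest kept probe (27174 of 39429 probes). Of the genes, 15632 had a RefSeq symbol (GRCm38.p6, names only), 1196 an older symbol and 4143 the file's name only. A bound used the array's lowest well-measured signal, 0.0165 in WT and 0.0154 in KO, or the gene's own signal where that was higher.

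No test was run, since each group has 1 array. The 38 gene lists and the rule for named genes were chosen with earlier results of these data known. The rule takes all phospholipases A2, the 15 highest and 15 lowest named genes on both arrays, 6 in each direction on 1 array only, up to 12 in each direction shared with DSS, up to 6 members of each list, and the 6 nearest genes on each side of Pla2g10. Other genes named were chosen after their values were seen. Alternatives were median scaling, quantile normalization, normexp (offset 50) with quantile normalization in limma 3.58.1, the series table, other filters, probe rules and fold thresholds. Gene collapse and bounds were tested on simulated data. Python 3.11.15 with pandas 2.3.3 was used. Some marker genes are not reported here.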

Additional observations from a re-analysis of the deposited data

Results flagged for a closer look

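Of the genes past 2-fold in naive, 20 of the higher and 18 of the lower were past 2-fold in the opposite direction with DSS. Those among the named genes, and the list medians at least 0.2 from 0 on opposite sides, are given here. None of these differences between the pairs was tested, since each pair holds 1 array per genotype. The value given is the log2 ratio with DSS minus that in naive colon.

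The 8 named genes past 2-fold in opposite directions were mostly in the squamous epithelium and skeletal muscle lists or near background. The skeletal muscle genes Myh1, Mb and Tnnc2 went from 1.42, 1.18 and 1.07 in naive to -1.92, -1.57 and -1.88 with DSS, differences of -3.34, -2.74 and -2.96. The cornified envelope genes Lce3c and Lce3a differed by -2.89 and -3.49, and were -1.73 and -2.40 with DSS. Pbp2 differed by -3.11, from 1.96 in naive to -1.16. Plekhg4 and Csf3, the neutrophil growth factor, ran the other way, by 4.19 and 3.34. Csf3 was not well above background in KO naive, nor in WT with DSS.

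Of the list medians, the erythrocyte markers had the largest difference, 1.73, from -0.21 in naive to 1.51 with DSS. Matrix and remodelling genes differed by 1.09 and endothelial markers by 1.02, both below 0 in naive. Skeletal muscle markers differed by -1.05, squamous epithelium markers by -0.87, genes of fatty acid and cholesterol synthesis by -0.72 and cell cycle genes by -0.50, all above 0 in naive. Reference genes had medians of 0.10 in naive and -0.18 with DSS, and the part of that offset in these differences was not tested.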

How the results depend on the processing

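Each comparison rests on 1 pool per genotype, so no replicate could be left out. No paired analysis was possible because each genotype has 1 naive array and no test was run. Alternatives moved the counts of genes at least 2-fold higher and lower in KO naive, 258 and 237, and of those shared with DSS, 61. Normexp with quantile normalization gave 140, 127 and 23, and 136 of the higher and 124 of the lower genes were in both sets. Keeping only genes that both naive arrays measured well above background gave 126, 77 and 39, and the share of higher genes went from 52.1% to 62.1%. Using dim values as measured gave 394, 360 and 116. A threshold of 1.5-fold gave 709, 517 and 309, and 4-fold gave 77, 72 and 7. Cacnb2 changed sign to -0.22 with the filter on both arrays, where another of its probes was used, and D030028A08Rik to 1.22 with the median over its probes. Median scaling, quantile normalization, the series table, the median over probes and kept outlier spots left each count within 1.5 times. The median of all genes lay between -0.01 and 0.02. Of the named genes' values, 226 of 2375 moved and 2 changed sign. Most genes past 2-fold were near background, where signal limits the ratio.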

Other observations

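Some gene groups not described above were close to equal in naive colon. Enteroendocrine markers were above 0 in 7 of 26 cases with a median log2 ratio of -0.16, which lay between -0.19 and -0.14 over the alternatives. Gcg, which encodes proglucagon, had a relative signal of 5.80 in WT and 4.67 in KO. Pyy (peptide YY) was 8.23 and 7.30, and Chga (chromogranin A) 12.3 and 11.4. The 1 member past 2-fold was Ins1, described above. With DSS 6 of 26 were above 0, with a median of -0.24. Tuft cell markers had a median of 0.00 and adipocyte markers -0.03.

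Circadian clock genes were above 0 in 5 of 20 cases with a median of -0.16 and 0 past 2-fold. Per2, a clock repressor, was 0.743 in WT and 0.532 in KO, and Dbp, a clock output gene, 25.8 and 24.4. Of 30 stress and hypoxia genes 16 were above 0, with a median of 0.05. The lowest were Hsph1, a heat shock protein, at 3.16 and 1.96, and Mt2, a metallothionein, at 51.1 and 33.2. Both had the opposite order with DSS, at log2 ratios of 1.45 and 0.57.

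Of 30 measured Hox position genes 16 were above 0 and 2 were past 2-fold downward, where 1.13% of all genes were. Both were dim on the KO array and both lie in the Hoxc cluster. Hoxc4 was 0.140 in WT and 0.0604 in KO, and Hoxc10 was not well above background in KO and at least 6.86-fold lower. In the DSS pair Hoxc4 had a ratio of -0.06, and neither array gave a ratio for Hoxc10. The median of the list was 0.02, and its sign changed over the alternatives, from -0.03 to 0.03.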
